A study of Homo sapiens with 6 samples.

Results

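The genes described here are 36 of the 60671 gene identifiers in the deposited count table: components of clathrin-mediated endocytosis and enzymes that add phosphate to, or remove it from, phosphoinositide lipids. They were chosen by name and role, with no measured value in the rule, though earlier results of these data were known. All 36 were found under 1 identifier each and passed the filter on low counts. They comprise 3 clathrin chains, 5 AP-2 subunits, 2 dynamins, 6 endophilins and other BAR proteins, 8 coat initiators and cargo adaptors, 2 uncoating factors, 7 inositol polyphosphate phosphatases and 3 phosphoinositide kinases. The libraries hold RNA that came down with an anti-myc antibody from HEK cells, an established line derived from human embryonic kidney, after calcium phosphate transfection. All 6 libraries share the line, the transfection, the precipitation and the removal of ribosomal RNA. The 3 control libraries are labelled wild-type control and untreated, and the 3 mutant libraries are labelled with the SYNJ2BP AAA mutant. The mutant titles also carry the name AAA.mito, and the labels do not explain its mito part. SYNJ2BP sits in the outer membrane of mitochondria and is a partner of synaptojanin 2 (SYNJ2), a lipid phosphatase. The labels do not say which construct the control cells carried, which HEK derivative was used, or whether the replicates were separate cultures. P-values therefore measure only the spread between these libraries. In fits that pair libraries by replicate number, they measure only the spread of the differences between paired libraries. Levels in a precipitate cannot be split into cellular abundance and recovery, and input RNA was not analysed here.

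In clathrin-mediated endocytosis, a lattice of clathrin heavy and light chains assembles on the plasma membrane, held there by AP-2, which binds both cargo and phosphatidylinositol bisphosphate. BAR-domain proteins sense and bend the membrane of the bud neck, dynamins cut the neck, and auxilin or GAK then work with a chaperone to strip the coat. Phosphoinositide kinases make the lipid that recruits the coat, and inositol phosphatases, synaptojanins among them, take it away again.

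The libraries differed widely in depth and background. Their totals ran from 3287218 to 73331652 counts, the lowest being mutant replicate 2 and the highest mutant replicate 3. A background level was taken from 389 protein-coding olfactory receptor genes, which HEK cells are not known to use: their count per base of gene span, extended over all nuclear genes, would account for 36.8%, 81.8% and 7.23% of the nuclear counts in control replicates 1, 2 and 3, and for 53.7%, 79.1% and 6.40% in the mutant ones. Below, "times background" is a gene's count per base of span divided by that of the olfactory receptors in the same library, and CPM is the count scaled to library size, after TMM factors, as edgeR's cpm function gives it. Libraries with the same replicate number deviated together, so differences are given for the 3 same-numbered pairs as log2 CPM of the mutant minus the control. Of 8 genes known from HEK cells, 6 (VIM, KRT18, CDH2, NEFM, LIN28B and IGF2BP1) lay over 8 times background in both replicate 3 libraries, while KRT8 and PAX2 did not. Of the markers of other cells, 2 of 10 for neurons (GAD1 and SYP) and 1 of 5 for fibroblasts (COL1A1) did so, and none of these genes was at 0 in all libraries. The median tested protein-coding gene stood at 13.6 and 16.7 times background in control and mutant replicate 3, so passing this cut does not establish cell identity. Under 2 times background in both of these libraries lay 0 of the 8 HEK genes. For neurons it was 5 of 10 genes, and for fibroblasts 4 of 5. The summed marker levels overlapped between the groups. They were 267 to 801 CPM in controls and 245 to 792 in mutants for the HEK genes, and 321 to 574 and 501 to 544 for neurons. For fibroblasts they were 23.4 to 75.9 and 19.8 to 64.8. The neuron sums thus lay within the range of the HEK sums. Background was not removed from these sums and grows with gene span, so they do not compare signal between the marker lists.

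The 36 genes were clear of background in the replicate 3 libraries and close to it in the replicate 2 libraries. Relative to background, their median level was 4.39, 1.29 and 25.7 in controls 1, 2 and 3, and 2.83, 1.29 and 29.6 in mutants 1, 2 and 3. For all tested protein-coding genes it was 2.22, 1.26 and 13.6 in controls and 1.84, 1.30 and 16.7 in mutants. The order of the libraries is thus not particular to the 36 genes. In control replicate 2, 30 of the 36 lay under 2 times background, and in mutant replicate 2, 31 did; in replicate 3 none did in either group. The second pair thus held little signal of these genes beyond background. By the geometric mean over the 6 libraries, 8 of the 36 stood over 8 times background, and "genes over 8 times background" below are chosen by that mean: CLTB, CLTC, AP2M1, AP2S1, EPN1, INPP5E, INPPL1 and PIP5K1A.

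**Figure D1:**
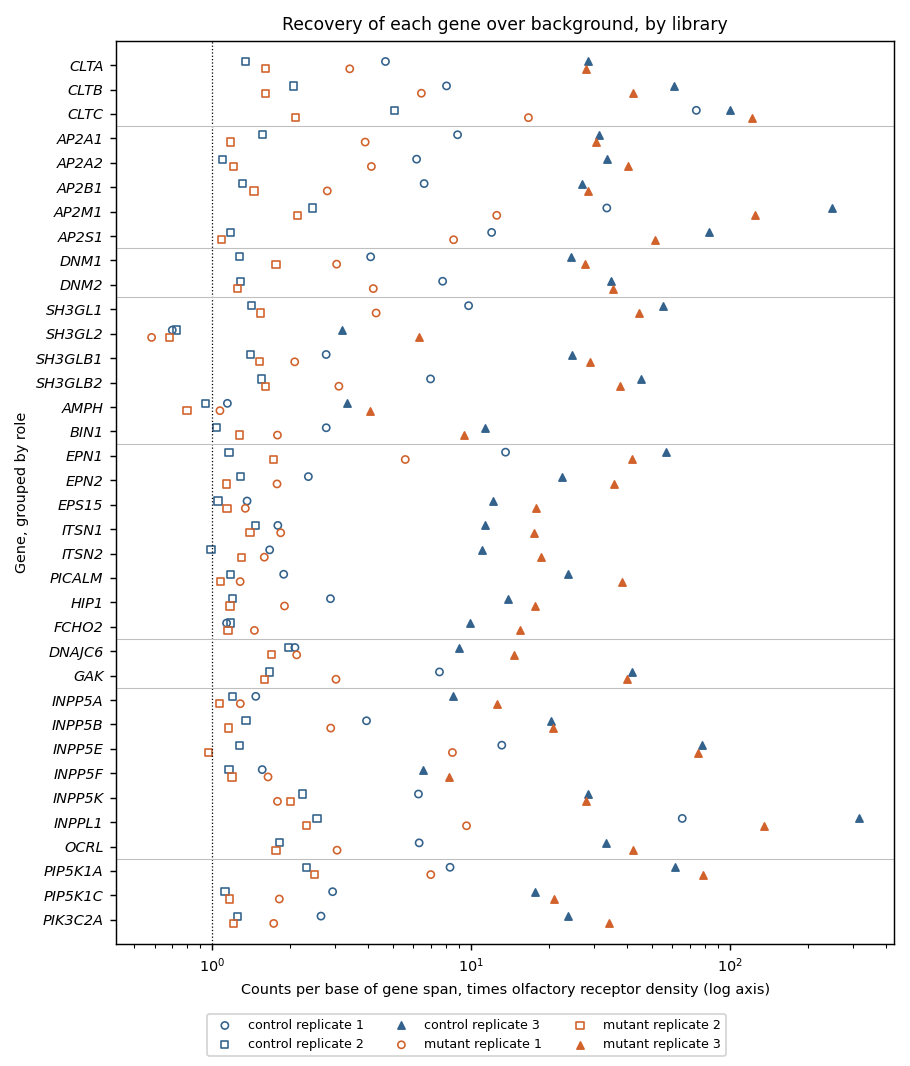
Level of each of the 36 genes as times background (log axis; the dotted line is the olfactory receptor level), with 1 point per library and genes grouped by role. INPPL1, AP2M1 and CLTC stand highest in replicate 3 (filled triangles), and the replicate 2 points (squares) of most genes lie under 2.

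2 genes fell in the mutant when the replicate number entered the edgeR quasi-likelihood fit as a block: INPPL1, which encodes the lipid phosphatase SHIP2, and AP2M1, the AP-2 medium subunit that reads cargo signals and binds phosphoinositide. The main fit, without the block, called 0 of 33375 genes (0.0%), and 25 (0.0749%) were at an unadjusted p under 0.05, none of them among the 36; DESeq2 and limma-voom without the block also called 0, with 70 and 2 genes at an unadjusted p under 0.05. With the block, 469 genes (1.41%) were called, 467 of them lower (1.40%) and 2 higher (0.00599%). Among the 36, 2 were lower and 0 higher. Among genes over 8 times background, 379 of 4586 (8.26%) were called lower, against 2 of the 8 here. Whether the group differs from genes of like level was not tested.

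Both genes are short, with spans of 15.4 kb and 9.40 kb. Their promoters are printed because these are the only 2 of the 36 genes called in the blocked edgeR fit; each run is the 250 bases before the RefSeq start, GRCh38.p14, on the plus strand at chr3:184174605-184174854 for AP2M1 and chr11:72223313-72223562 for INPPL1. For INPPL1, which has 3 RefSeq starts, the start nearest to the GENCODE gene start was used. Capitals mark the GC box, the 6 letters GGGCGG or its reverse complement CCGCCC.
AP2M1: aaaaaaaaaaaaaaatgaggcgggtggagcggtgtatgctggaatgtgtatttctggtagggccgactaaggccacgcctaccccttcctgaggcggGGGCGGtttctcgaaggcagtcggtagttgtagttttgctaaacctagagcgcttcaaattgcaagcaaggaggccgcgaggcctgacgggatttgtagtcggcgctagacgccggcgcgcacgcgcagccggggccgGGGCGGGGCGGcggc
INPPL1: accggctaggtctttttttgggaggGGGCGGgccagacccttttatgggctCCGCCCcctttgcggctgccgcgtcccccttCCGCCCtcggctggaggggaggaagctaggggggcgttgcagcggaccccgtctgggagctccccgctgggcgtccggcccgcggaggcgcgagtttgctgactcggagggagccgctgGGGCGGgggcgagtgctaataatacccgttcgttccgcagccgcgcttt
The AP2M1 window holds 3 GC boxes, the last 2 of which overlap, and the INPPL1 window 4. The AP2M1 window runs past the GENCODE gene start at 184174689. Part of it, with the last 2 boxes, thus lies within the annotated gene. Such a box stood in 29 of the 35 members with an entry (82.9%) and in at least 1 window of 12625 of the 27305 genes with a RefSeq promoter of that length (46.2%); over windows, the share was 14973 of 35116 (42.6%). INPP5A had no entry. The match is a description of letters and says nothing of any factor.

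INPPL1 (ENSG00000165458, chr11:72223701-72239105 on the plus strand, GRCh38) removes a phosphate from phosphatidylinositol trisphosphate and from inositol phosphates. Its CPM was 204, 12.1 and 262 in control replicates 1, 2 and 3 and 33.4, 10.6 and 95.3 in the mutant ones. The mutant library was the lower in each pair, but the groups overlapped because control replicate 2 was low. The means were 159 ± 131 CPM in controls and 46.4 ± 43.8 in mutants (SD, n = 3 each). The pair differences were -2.61, -0.19 and -1.46 on the log2 scale. The edgeR fit with the block gave a log2 fold change of -1.50 ± 0.34 (SE, adjusted p = 0.0153), and without it -1.78 ± 1.12. The unblocked value ran from -2.80 without mutant replicate 3 to -1.003 without control replicate 3, and was -1.09 without mutant replicate 2. At 316 times background in control replicate 3 and 136 times in mutant replicate 3, INPPL1 had the highest level per base of span among the 36 genes in those libraries. After subtraction of background, the differences were -1.90 in the first pair and -1.41 in the third. Its span overlaps that of PHOX2A by only 0.029 kb.

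AP2M1 (ENSG00000161203, chr3:184174689-184184091 on the plus strand, GRCh38) overlaps no other annotated gene. Its CPM was 63.6, 7.10 and 126 in control replicates 1, 2 and 3 and 26.7, 6.004 and 53.6 in the mutant ones. Again each mutant library was below its control, and the groups overlapped through control replicate 2. The means were 65.6 ± 59.5 and 28.8 ± 23.9 CPM (SD, n = 3 each), with pair differences of -1.25, -0.24 and -1.23. The edgeR log2 fold change was -1.002 ± 0.26 with the block (SE, adjusted p = 0.0443) and -1.18 ± 1.04 without it. The unblocked value ran from -1.94 without mutant replicate 3 to -0.09 without control replicate 3, and was -0.50 without mutant replicate 2. It stood at 249 times background in control replicate 3 and 125 times in mutant replicate 3. After subtraction of background, the difference was -0.49 in the first pair and -1.19 in the third, so that of the first pair shrank by more than 1.5 times.

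**Figure D2:**
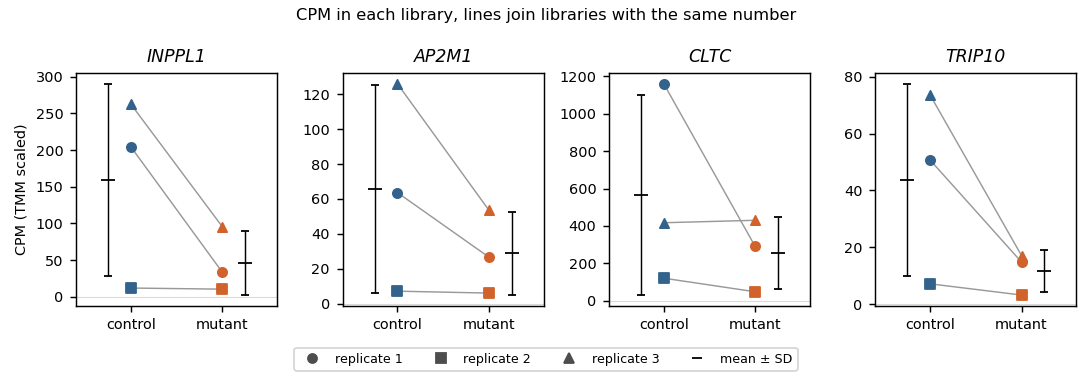
CPM (linear axis) of INPPL1, AP2M1, CLTC and the related gene TRIP10 in each of the 6 libraries, with grey lines joining libraries of the same replicate number and bars for the mean ± SD of each group. INPPL1, AP2M1 and TRIP10 are lower in the mutant along each line, while the replicate 3 line of CLTC is nearly level at 417 and 430 CPM.

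Both calls needed all 3 pairs, while both genes stayed lower in the mutant. Without replicate 1, 2 or 3 in both groups, the edgeR fit with the block called none of the 36 genes. INPPL1 then had a log2 fold change of -0.95, -1.86 and -1.55 (adjusted p 1, 0.140 and 0.636), and AP2M1 of -0.88, -1.08 and -0.85 (adjusted p 0.991, 0.318 and 0.788). Scaling from the genes over 8 times background moved the median of all tested genes from -0.08 to 0.38 and left neither called (adjusted p 0.677 for both in edgeR). Relative to that median, INPPL1 was at -1.42 before and -1.38 after, and AP2M1 at -0.92 and -0.85. A change of scaling shifts all genes nearly alike, so these values were bound to move little and lend no weight to the calls. With the block and TMM, the median of protein-coding genes over 8 times background was -0.55. With upper quartile factors, the blocked edgeR fit called INPPL1 (-1.34, adjusted p 0.00272) and not AP2M1 (-0.83, adjusted p 0.109). AP2M1 then stood at -0.91 relative to the median, a value with the same limit. With background subtracted neither was called (0.996 for both), at -1.41 for INPPL1 and -0.88 for AP2M1, close to the values before subtraction. DESeq2 and limma-voom with the block, added after the data were seen, each called 3 of the 36 lower, INPPL1, AP2M1 and CLTC, against 1.57% and 4.37% of all tested genes.

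**Figure D3:**
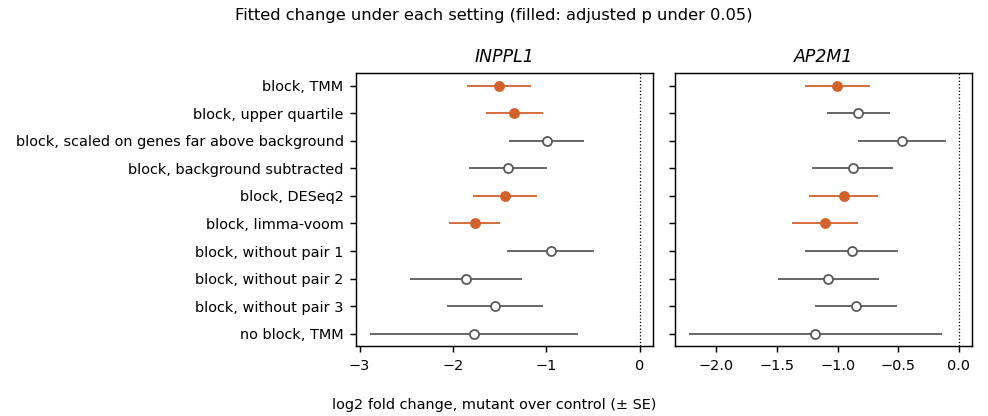
Fitted log2 fold change ± SE of INPPL1 and AP2M1, mutant over control, under each processing setting; filled points have an adjusted p under 0.05. Both genes stay below 0 in each setting drawn, and the filled points are those of the block with TMM, DESeq2 or limma-voom and, for INPPL1, upper quartile factors.

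Among the coat chains, the heavy chain CLTC, which forms the legs of the triskelion, varied most. Its counts were 16104, 1807 and 17322 in control replicates 1, 2 and 3 and 2549, 210 and 23167 in the mutant ones, or 1159, 121 and 417 CPM against 290, 48.5 and 430 CPM. Control replicate 1 stood above all others, and the pair differences were -2.00, -1.32 and 0.04, the third being near 0. The edgeR fit gave -1.14 ± 1.03 (SE) without the block and -1.10 ± 0.42 with it (adjusted p = 0.25), while DESeq2 and limma-voom with the block called CLTC lower (adjusted p 0.0225 and 0.000819). Without control replicate 1, the unblocked value was -0.09. CLTC shares 22.3 kb of its span with PTRH2 on the opposite strand, whose counts were 57.6% to 63.3% of those of CLTC in each library, and the strand setting of the counting was not given in the sources used here, so reads of the 2 genes cannot be told apart. The light chain CLTA, which with CLTB regulates the lattice, measured 108, 47.6 and 173 CPM in controls and 87.4, 54.5 and 144 in mutants, with pair differences of -0.30, 0.20 and -0.27. Its span holds all 62.6 kb of GNE on the opposite strand, whose counts were 740, 336 and 2195 in controls and 287, 122 and 3232 in mutants, so the level of CLTA is uncertain too. CLTB was lower in each pair, by differences of -0.17, -0.41 and -0.77, and was not called. It shares 9.4 kb with ARL10 on the opposite strand, which had more counts than CLTB in each library. Those of ARL10 were 1217, 344 and 8066 in controls and 582, 115 and 6459 in mutants, so the level of CLTB is uncertain as well.

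The 5 AP-2 subunits had a median log2 fold change of -0.54 with the block, against -0.12 for all tested protein-coding genes and -0.55 for protein-coding genes over 8 times background. Only AP2M1 was called. AP2M1, AP2A1 and AP2S1 were lower in each pair and had an unadjusted p under 0.05 in the blocked edgeR fit. AP2S1, the small subunit that reads dileucine signals, measured 31.2, 4.69 and 57.4 CPM in controls and 24.8, 4.16 and 30.2 in mutants, with pair differences of -0.33, -0.17 and -0.93; above background, its first pair was at 0.46, the other way. AP2A1, a large subunit, had differences of -1.03, -0.46 and -0.28, and its paralog AP2A2 of -0.42, 0.08 and 0.03. AP2B1, the large subunit that binds clathrin, measured 198, 60.2 and 215 CPM in controls and 93.2, 64.2 and 192 in mutants, and its pair differences were -1.09, 0.09 and -0.16; it shares 12.6 kb with TAF15 on the same strand. In the third pair 4 of the 5 subunits were lower, as were 11109 of the 18456 tested protein-coding genes, and no difference between subunits was tested.

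The dynamins and BAR proteins each have forms known best from nerve terminals, and these were compared with the widely used forms per base of span. The ubiquitous dynamin DNM2 stood at 34.9 and 35.4 times background in control and mutant replicate 3, and the neuronal DNM1 at 24.4 and 27.6. DNM2 measured 181, 45.9 and 217 CPM in controls and 109, 43.2 and 186 in mutants, lower in each pair, while DNM1 measured 52.7, 25.1 and 83.8 against 43.4, 33.5 and 80.0 without a shared direction. DNM1 shares 12.7 kb with CIZ1, whose counts were 1152, 334 and 5544 in controls and 306, 94 and 4234 in mutants, so its level is uncertain. Among the endophilins, which bend membrane and recruit synaptojanin and dynamin, SH3GL1 was at 55.1 and 44.7 times background in replicate 3 and SH3GL2 at 3.18 and 6.32. SH3GL2 lay under the background level in replicates 1 and 2 of both groups, and measured 31.0, 49.1 and 37.4 CPM in controls and 28.7, 44.3 and 62.8 in mutants. SH3GL1 measured 79.5, 17.7 and 119 CPM in controls and 39.0, 18.5 and 81.7 in mutants, with pair differences of -1.03, 0.06 and -0.55. AMPH, the neuronal amphiphysin, was at 3.31 and 4.08 times background in replicate 3 against 11.4 and 9.40 for its paralog BIN1. Spans include introns, and by mean CPM per kb of exon over all libraries the order differed for AMPH and BIN1 alone. By that measure AMPH was at 10.0 and BIN1 at 3.86, and SH3GL2 at 15.7 and SH3GL1 at 16.1. DNM1 was at 4.93 and DNM2 at 9.70. The order of AMPH and BIN1 thus depends on the measure, while SH3GL1 and DNM2 stood above SH3GL2 and DNM1 by each measure. Which form was the more abundant was not tested. AMPH measured 57.4, 72.1 and 44.2 CPM in controls and 59.9, 59.1 and 46.0 in mutants, overlapping throughout. SH3GLB2, an endophilin of internal membranes, was lower in pairs 1 and 3, at -1.02 and -0.51, and by a margin of 0.00 in pair 2, and SH3GLB1 stayed within 0.25 of 0 in each pair.

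The 8 initiators and cargo adaptors were the only role with a median above 0 in the blocked fit, at 0.07, and 7 of the 8 were higher in the mutant in the third pair. These 7 all span over 100 kb, and of all tested protein-coding genes of that length, 2654 of 3586 were higher in that pair, so the count was not read as a trait of the role. EPS15 and ITSN2, scaffolds that arrive early at the pit, were higher in each of the 3 pairs, by 0.13, 0.06 and 0.31 and by 0.09, 0.33 and 0.52. They were 2 of the 36, while 9.90% of all tested genes were higher in each pair, and neither had an unadjusted p under 0.05. PICALM, which recruits clathrin and sorts vesicle SNAREs, measured 42.9, 40.9 and 143 CPM in controls and 32.5, 36.02 and 196 in mutants, lower in the first 2 pairs and higher in the third. HIP1, which links the coat to actin, measured 119, 76.4 and 154 CPM in controls and 88.3, 71.8 and 166 in mutants. EPN1, an epsin that helps bend the membrane, had the widest spread of the role, with pair differences of -1.13, 0.51 and -0.68, and its paralog EPN2 had -0.25, -0.24 and 0.42. ITSN1 lies within the span of another annotated gene, so its counts may be shared.

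The 2 uncoating factors also form a neuronal and a general pair. GAK, the general form, measured 127, 42.8 and 188 CPM in controls and 56.4, 39.5 and 152 in mutants, lower in each pair by differences of -1.17, -0.11 and -0.31. DNAJC6, the neuronal auxilin, measured 70.8, 102 and 81.0 CPM against 80.2, 84.7 and 112, higher in pairs 1 and 3 and lower in pair 2. In replicate 3, GAK stood at 41.9 and 40.1 times background and DNAJC6 at 8.96 and 14.6. By mean CPM per kb of exon over all libraries, GAK was at 6.65 and DNAJC6 at 12.7, so their order depends on the measure. Neither was called.

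**Figure D4:**
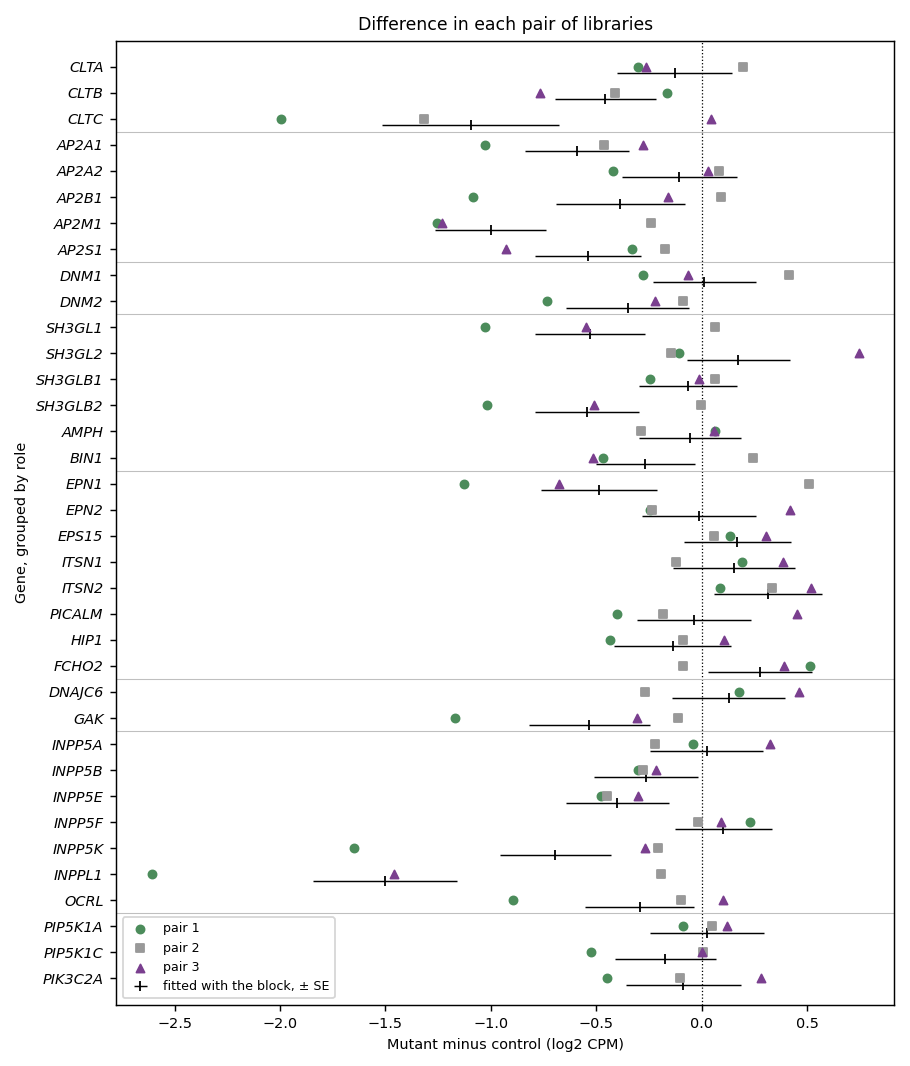
Mutant minus control log2 CPM of each gene in each of the 3 pairs, grouped by role, with the fitted value of the blocked edgeR model ± SE as a black bar. INPPL1, CLTC and INPP5K have the lowest values in the first pair, and the initiators other than EPN1 lie above 0 in the third pair.

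The 7 inositol polyphosphate phosphatases had a median of -0.29 in the blocked fit, and all 7 were lower in the second pair, where levels were near background. In that pair, 9719 of the 18456 tested protein-coding genes were lower. Besides INPPL1, INPP5B, INPP5E and INPP5K were lower in each pair. INPP5K had differences of -1.65, -0.21 and -0.27 and an unadjusted p under 0.05, and INPP5E, the phosphatase of the primary cilium, of -0.48, -0.45 and -0.30. OCRL, the phosphatase mutated in Lowe syndrome, had -0.90, -0.10 and 0.10. INPP5A, which acts on soluble inositol phosphates, measured 73.3, 91.3 and 113 CPM in controls and 71.2, 78.3 and 141 in mutants, with fitted values near 0. INPP5F, a phosphatase of endosomes, had differences of 0.23, -0.02 and 0.09. INPPL1 was therefore the only called phosphatase, although 6 of the 7 were lower in the first pair, as were 11863 of the 18456 tested protein-coding genes.

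None of the 3 kinases was called. All 3 were lower in the first pair and none in the third, where 11863 and 11109 of the 18456 tested protein-coding genes were lower. With 3 genes, these counts were not read as a trait of the role. PIP5K1A, which makes the bisphosphate that AP-2 binds, measured 86.6, 37.1 and 170 CPM in controls and 81.3, 38.3 and 185 in mutants, and its pair differences were -0.09, 0.05 and 0.12. PIK3C2A, a kinase recruited by clathrin, measured 69.4, 50.4 and 166 CPM against 50.8, 46.9 and 203. PIP5K1C, the form enriched at synapses, differed in the first pair alone, at -0.53.

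By direction, 29 of the 36 genes were lower in the mutant in the first pair, 24 in the second and 18 in the third, with medians of -0.41, -0.10 and 0.00. Of the 18456 tested protein-coding genes, 11863, 9719 and 11109 were lower in these pairs, with medians of -0.21, -0.02 and -0.15. Of the 36, 11 were lower in each pair, against 18.2% of all tested genes and 44.4% of protein-coding genes over 8 times background. With the block, 7 (CLTC, AP2A1, AP2M1, AP2S1, SH3GLB2, INPP5K and INPPL1) were lower at an unadjusted p under 0.05 and 0 higher, against 9.17% and 0.857% of all tested genes. Of tested protein-coding genes, 2449 of 18456 were lower at that p, and 1517 of the 3178 over 8 times background. CLTC, AP2M1, AP2S1 and INPPL1 are themselves over 8 times background, so the 7 were not read as a trait of the group. The median blocked log2 fold change was -0.16, against -0.08 for all tested genes and -0.12 for protein-coding ones. The groups overlapped in CPM for each of the 36, while 0.998% of all tested genes did not overlap. Summed, the 36 genes held 0.343%, 0.201% and 0.287% of all counts in control replicates 1, 2 and 3 and 0.245%, 0.179% and 0.303% in the mutant ones. The means of 0.277% ± 0.0714 and 0.242% ± 0.0621 (SD, n = 3) gave p = 0.6 in a two-sided exact permutation of the libraries, where the smallest possible p is 0.1.

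Among the 36 genes, the differences in pairs 1 and 3 went with the length of the gene. The 7 genes with a span up to 30 kb (CLTB, AP2M1, AP2S1, SH3GLB2, INPP5E, INPP5K and INPPL1) were lower in the mutant in each pair, with medians of -1.02, -0.21 and -0.77. The 13 genes of 30 to 100 kb had medians of -0.53, 0.05 and -0.07. Of the 16 genes over 100 kb, 13 were higher in the third pair, all but CLTA, AP2B1 and DNM2, and the medians were -0.08, -0.10 and 0.32. Over the 36 genes, the correlation of log10 span with the pair difference was r = 0.543, 0.096 and 0.812 (Spearman 0.606, 0.0739 and 0.798), given as a description, since the genes share libraries and differ in base composition. The correlation with GC content was -0.399, 0.076 and -0.638. The same order held over all tested protein-coding genes in the third pair, with medians of -0.42 for 9094 genes up to 30 kb, -0.01 for 5776 of 30 to 100 kb and 0.29 for 3586 above, and there r was 0.482. In the first pair, the medians of these 3 length classes were -0.39, -0.20 and 0.00, with r = 0.159. Protein-coding genes over 8 times background ran the other way in the first pair, at -0.85, -1.01 and -1.19 with rising span, and the same way in the third, at -0.76, -0.21 and 0.11. The share of background differed between paired libraries as given above, and its part in these differences was not tested.

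**Figure D5:**
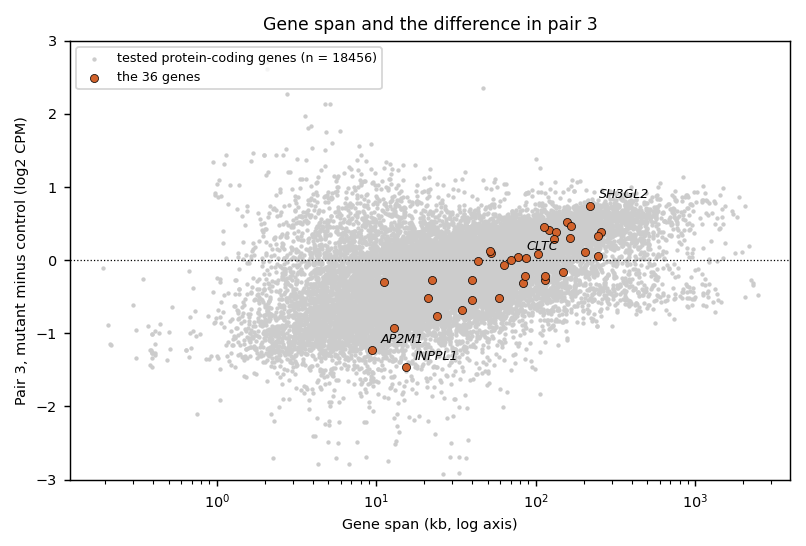
Mutant minus control log2 CPM in the third pair against gene span (log axis), with the 36 genes drawn over the 18456 tested protein-coding genes, 2 of which lie beyond the plotted range. The 7 shortest of the 36 lie below 0 and 13 of the 16 longest above it.

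Other genes of the pathway were read from the same fit. Of 37 further genes of clathrin endocytosis, 1 fell in the blocked edgeR fit and 0 rose: TRIP10, an F-BAR protein that links membrane curvature to actin. TRIP10 measured 50.7, 7.17 and 73.5 CPM in controls and 14.8, 3.23 and 17.1 in mutants, with pair differences of -1.77, -1.14 and -2.10 and a log2 fold change of -1.79 ± 0.26 (adjusted p = 0.000107). It stayed called without replicate 1 or 2 (0.00222 and 0.00016) and was not called without replicate 3 (log2 fold change -1.55, adjusted p 0.3001), with scaling from genes over 8 times background (-1.23, 0.659) or with background subtracted (-2.33, 0.996). Relative to the median of all tested genes, TRIP10 was at -1.71 before and -1.61 after scaling from genes over 8 times background. Such a value moves little under any change of scaling and lends no weight to the call. Of 36 further phosphoinositide enzymes, 1 fell and 0 rose: MTMR4, a myotubularin phosphatase of endosomes, with pair differences of -1.80, -0.14 and -1.31 and a log2 fold change of -1.13 ± 0.28 (adjusted p = 0.0313 in edgeR). Without replicate 1, 2 or 3, MTMR4 was at -0.84, -1.38 and -1.03 and was not called (adjusted p 1, 0.166 and 0.749). It was called with upper quartile factors (0.0333) but not with scaling from genes over 8 times background (-0.65, 0.677) or with background subtracted (-1.10, 0.996). Of 27 genes of other adaptors, which include the GGA proteins and CLINT1 beside complex subunits, none was called in the blocked edgeR fit. GGA2 had -0.84 ± 0.29 (adjusted p = 0.161) and AP4B1 -0.76 ± 0.27 (0.195). The list's median of -0.38 was below that of the 36 genes, with 11 of its 27 over 8 times background against 8 of 36. The medians of the first 2 lists were -0.02 and -0.12.

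The synaptojanins, which unite the phosphatase and endocytic sides of the pathway, showed no call: SYNJ1 measured 53.8 ± 22.9 CPM in controls and 63.0 ± 41.5 in mutants (SD, n = 3 each), with a blocked log2 fold change of 0.13. SYNJ2 measured 6255, 2317 and 3532 CPM in controls and 4859, 5100 and 1981 in mutants, overlapping, with a blocked value of -0.03. Each of these SYNJ2 levels was far above those of SYNJ1 and above the highest level of CLTC, 1159 CPM. The cells were transfected, and whether the SYNJ2 counts came from the cells' own gene or from a construct was not tested. The SYNJ2 values are therefore not read as the level of the cells' own gene.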

How the data were processed

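RNA from anti-myc precipitates of transfected HEK cells was sequenced in 3 control and 3 SYNJ2BP AAA mutant libraries. The authors deposited 1 table of raw counts per gene; STAR 2.7.6a, FastQC and featureCounts are named in the submitters' processing notes, while the genome build and strand setting were not given in the sources used here. All 6 columns were used. Even numbers made up 58.6% to 81.7% of counts from 10 to 200, for which the sources used here give no reason.

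Of 60671 identifiers, 58453 were matched to GENCODE 29 (GRCh38), which gave positions. Counts were tested in R 4.3.3 with edgeR 4.0.16 (filterByExpr, TMM, quasi-likelihood F test, Benjamini-Hochberg over 33375 genes, threshold 0.05), without a block; standard errors were derived from F, and log2 CPM used a prior count of 1. Same-numbered libraries deviated together (r = 0.414, 0.763 and 0.901 between their deviations from group means, each highest with its own number), so a blocked fit, with that number as a block, is given beside it; this pairing comes from the check, not from the labels. The biological coefficient of variation was 0.746 without and 0.249 with the block. Alternatives were DESeq2 1.42.0, limma 3.58.1 (voom), other scalings, no filter, background subtraction and leaving out libraries. The fits were tested on simulated counts with replicate effects built in. Such counts cannot show whether the block is right for these libraries.

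Members and lists were chosen with earlier results of these data known. Values per library are given for called genes, the 2 members of each role with the highest level per base of exon and the synaptic form of each paralog pair; from other lists, called genes or the 2 with the smallest p. A further list of cell type markers is not reported here.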

Additional observations from a re-analysis of the deposited data

How the results depend on the processing

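The edgeR fit without the block called 0 genes, and so did DESeq2, limma-voom, both other scalings, no filter on low counts, background subtraction and leaving out each library in turn. The replicate block raised the count to 469 genes, with 2 of the 36 members, 1 of the other clathrin endocytosis genes and 1 of the other phosphoinositide enzymes. With the block, upper quartile factors gave 312 genes, 1 member, 1 and 1. Scaling from genes over 8 times background gave 5 genes and no member, and background subtraction gave 0 genes. DESeq2 with the block gave 524 genes, 3 members, 2, 2 and 1 gene of the other adaptors. limma-voom with the block gave 1492 genes, 3 members, 2, 3 and 2. The last 2 settings were chosen after seeing the data. With the block and without replicate 1, 2 or 3, the counts were 37, 259 and 0 genes and 0 members, with 1 clathrin endocytosis gene without replicate 1 and 1 without replicate 2. Fewer libraries enter these fits. The cause of the other changes was not tested.

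The genes below changed sign with the setting, among them AP2S1, SH3GL1, GAK, AP2B1 and DNM2, which were not near 0 in the unblocked fit, and none of these values was called. The block gave a log2 fold change of 0.0132 for DNM1, -0.0358 for PICALM and -0.0864 for PIK3C2A. With the block, leaving out replicate 1 gave DNM1 0.0906 and INPP5A -0.0223; replicate 2, AMPH 0.2253 and HIP1 0.0031; replicate 3, DNM1 0.0468, SH3GL2 -0.1386, PICALM -0.3054, DNAJC6 -0.0552, INPP5A -0.1414, PIP5K1A -0.0336 and PIK3C2A -0.2902. Upper quartile factors with the block gave CLTA 0.0313, DNM1 0.1744, AMPH 0.1063 and HIP1 0.0212, and without it 0.0089, 0.1602, 0.0225 and 0.0346. Scaling from genes over 8 times background with the block gave CLTA 0.3269, AP2B1 0.0647, DNM1 0.4741, DNM2 0.1047, AMPH 0.4011 and HIP1 0.3136, and without it CLTA 0.2674, AP2B1 0.0312, AP2S1 0.037, DNM1 0.4205, DNM2 0.0704 and HIP1 0.1201. DESeq2 with the block gave DNM1 0.0493 and PIK3C2A -0.049, and limma-voom with the block PICALM -0.1143, INPP5A -0.0153 and PIK3C2A -0.1518. Background subtraction with the block gave CLTA 0.1145, DNM1 0.3985, AMPH 0.0334, PICALM -0.6066, INPP5A -0.4142 and PIK3C2A -0.2154, and without it CLTA 0.0721, DNM1 0.3075, AMPH 0.207, DNAJC6 -0.1493 and INPP5A -0.1095. Without the block, limma-voom gave DNM1 0.0607 and PIK3C2A -0.0183, and no filter gave DNM1 0.0871, AMPH 0.0011 and HIP1 0.0364.

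Leaving out 1 library at a time without the block, values ran from -0.5882 to 0.4718 for CLTA, -0.9651 to 0.0619 for AP2B1, -1.1729 to 0.3244 for AP2S1, -0.4536 to 0.6018 for DNM1, -0.9088 to 0.1934 for DNM2, -1.2848 to 0.127 for SH3GL1, -0.0772 to 0.4619 for SH3GL2, -0.1398 to 0.0961 for AMPH, -1.123 to 1.303 for PICALM, -0.5082 to 0.3278 for HIP1, -0.0036 to 0.3734 for DNAJC6, -1.2783 to 0.1583 for GAK, -0.2763 to 0.407 for INPP5A, -0.6672 to 0.9184 for PIP5K1A and -0.9392 to 0.9557 for PIK3C2A. The low depth and high background of the replicate 2 libraries limit what that pair can show.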
